A study of Mus musculus with 8 samples.

Results

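The nuclear genes of the mitochondrial respiratory chain were examined in the ribosome-bound and total mRNA of mouse MII oocytes from young and old females. Genes were taken by symbol (Ndufa to Ndufv and Ndufaf, Sdha to Sdhd and Sdhaf, Uqcr, Cox4 to Cox8, Cox10 to Cox19 and Atp5). The choice used no measured value. These symbols matched 66 genes, of which 40 were in both expression tables, 24 in the input table alone and 2 in the HA table alone. The 40 genes, out of 8537 in both tables, comprised 30 subunits and 10 assembly factors, with 13 genes in complex I, 5 in complex II, 2 in complex III, 13 in complex IV and 7 in complex V.

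The libraries came from 4 pools of 200 ovulated oocytes, 2 pools from young (1 month) and 2 from old (12 to 15 months) RiboTagF/F;Zp3-Cre females on a C57BL/6 background. The old females were retired breeders. In these mice the oocyte-expressed Zp3 promoter drives Cre, which switches the ribosomal protein Rpl22 to an HA-tagged form, and both ages carried both alleles. All females received 5 IU PMSG, then 10 IU hCG after 48 h, and oocytes were retrieved 13 h later. From each pool, 10% of the cleared lysate served as input (total mRNA), and the HA immunoprecipitate of the remainder held the ribosome-bound mRNA, so that 8 libraries were sequenced.

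Oxidative phosphorylation is carried out by 5 protein complexes of the inner mitochondrial membrane. Complex I (NADH dehydrogenase) and complex II (succinate dehydrogenase) pass electrons to ubiquinone, complex III and complex IV (cytochrome c oxidase) pass them on to oxygen, and complex V (ATP synthase) uses the resulting proton gradient to make ATP. Most of their subunits are translated from nuclear mRNAs in the cytosol, and assembly factors insert cofactors and join modules without being part of the finished enzyme. Mature oocytes make little new mRNA and rely on oxidative metabolism, so that the supply of these proteins depends on the translation of stored transcripts.

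A gene's translation efficiency (TE) was its HA level over its input level in the same pool. Levels were CPM, that is, a gene's reads relative to the size of the library. Old and young pools were compared on log2(CPM + 1), a scale on which the change of weakly expressed genes is understated. Differences are given as old minus young. In bulk libraries of this kind, fewer transcripts in every oocyte and transcripts lost from some of the oocytes cannot be told apart.

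Translation of stored oocyte mRNAs is governed in part by the cytoplasmic polyadenylation element (CPE), a short U-rich motif in the 3'-UTR. The respiratory chain genes had short transcripts, and this feature played no part in their choice. Their median 3'-UTR was 330.5 bases long, against 1538 bases over all annotated genes in both tables, and their median merged exon length was 2140 against 4940.5 bases. A CPE, searched as TTTTAT or TTTTAAT on the transcribed strand, was found in 14 of the 40 genes (35.0%), against 70.6% of all genes with a 3'-UTR. Per kb of 3'-UTR, there were 0.914 motifs in the respiratory chain genes and 1.33 over all genes. Among the 2282 other genes with a 3'-UTR of 194 to 986.5 bases, the middle range of the respiratory chain genes, 47.0% held the motif, as did 4 of the 20 respiratory chain genes of that length. This length range was set after seeing the data.

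In 4 of the 40 genes (10.0%, against 21.8% of all genes) the last CPE lay within 100 bases of the 3'-UTR end. These windows are shown because CPEs known to act in oocytes mostly lie near the end of the transcript, and U is written as T. The distances from the 3'-UTR end were 15 bases in Ndufaf3, 46 in Ndufab1, 52 in Ndufs4 and 79 in Cox5a. Each is printed 5' to 3' with the CPE in capitals, from build GRCm38, on the minus strand for Ndufaf3 (chr9:108565542-108565567), Ndufab1 (chr7:122085439-122085464) and Ndufs4 (chr13:114287837-114287862) and on the plus strand for Cox5a (chr9:57532332-57532357).
Ndufaf3: tttcccaaacTTTTATtgaaaaattc
Ndufab1: atttcagactTTTTATtaacaataaa
Ndufs4: aatggagatcTTTTATtcttaggaaa
Cox5a: cctggaaatgTTTTATttgaacaaat
The genes with a CPE had a median log2 TE of -0.73 in young and -1.15 in old pools, and those without had -0.38 and -0.88. Over all genes, the order was the opposite, at -0.38 and -0.44 with a CPE and -0.63 and -0.95 without.

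Between 37817382 and 60052814 reads were counted per library. In HA, 3 reads (taken as the floor, which covers counting error only) were worth 0.0388 to 0.111 CPM, and in input 0.0435 to 0.0788 CPM. All 10 oocyte markers examined were in both tables, with summed levels of 11314 to 17761 CPM in HA, and none of the 6 blood or 7 oviduct and stromal markers was in either table. Of 12 cumulus and granulosa markers, Cyp19a1, Fshr, Nr5a2 and Ptgs2 were in the HA table, with summed levels of 144 and 88.8 CPM in old and 199 and 207 CPM in young libraries. This sum was lower in both old libraries, and its part in the differences below was not tested. In the input, where 9 of the 12 were in the table, the sum ranged from 157 to 314 CPM. The 2 old HA libraries differed more from each other than the 2 young ones, with a median absolute gap per respiratory chain gene of 1.91 against 0.75 on the log2 scale. The corresponding gaps over all genes were 1.29 and 0.77.

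Respiratory chain transcripts were weakly expressed as a group. Their median level was 1.40 to 8.15 CPM in the HA libraries, where the median over all genes was 12.7 to 18.2 CPM, and 7.78 to 11.9 CPM in the input libraries, where it was 17.7 to 18.5 CPM. Relative to merged exon length, however, they were near the middle of the transcriptome, with a median input level of 4.91 CPM per kb against 4.51 over all genes. Atp5b, Cox10, Sdha, Atp5a1 and Ndufaf4 together held 65.0% to 81.0% of the HA signal of the 40 genes. By input CPM per kb, the order was led by Cox10 (115), Atp5b (38.7), Cox8a (29.9), Cox6a1 (25.6), Sdha (24.6), Cox6b2 (24.3), Atp5a1 (22.7) and Ndufaf4 (21.9). From Cox8a to Ndufaf4 the ranges over the 4 libraries overlapped, so that these neighbours were not separated. Reads were counted over whole genes, introns included, and Cox10 spans 116842 bases with 3037 bases of merged exons, so that its value per kb of exon is not directly comparable with that of the compact genes.

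**Figure D1:**
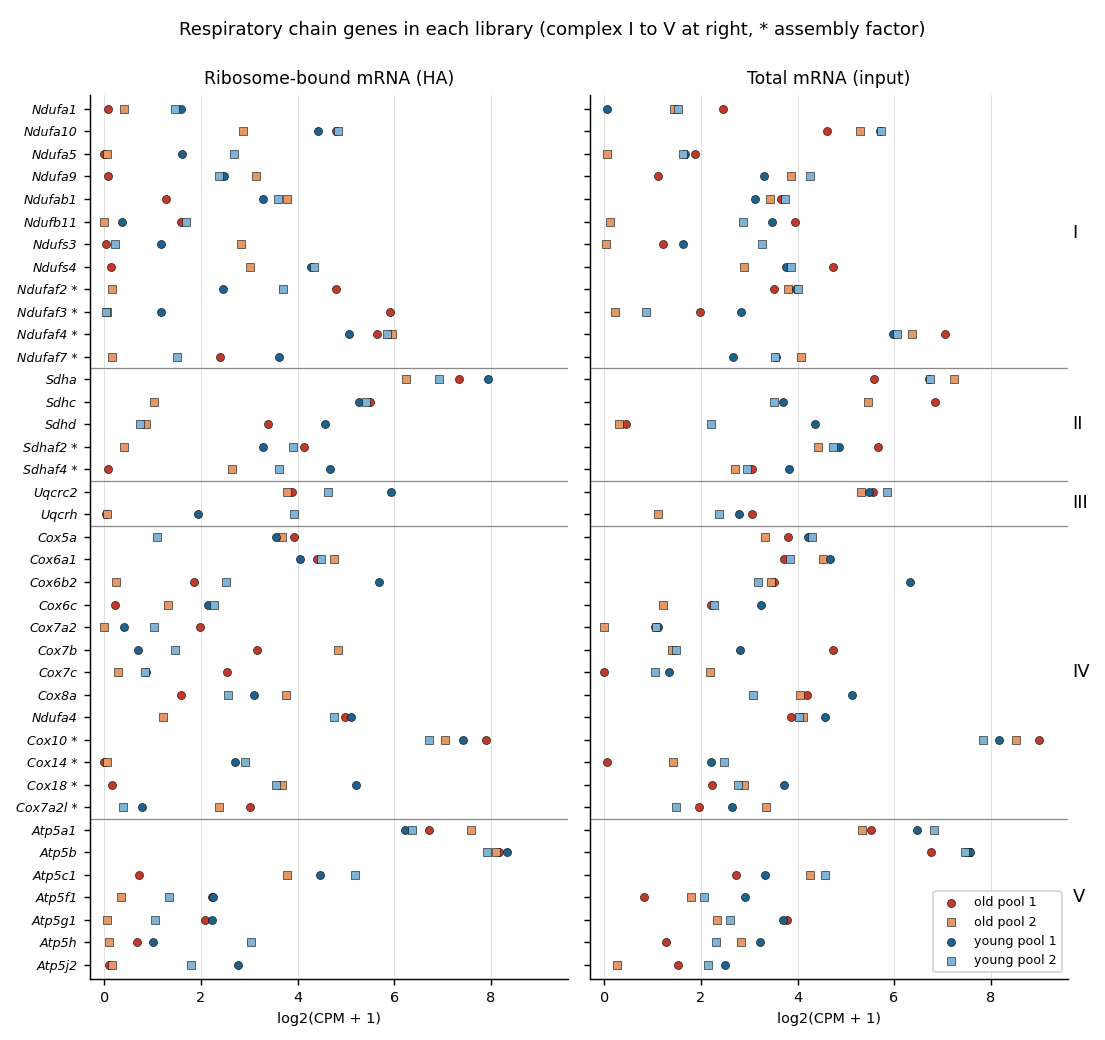
Level of 39 of the 40 respiratory chain genes in the HA (left) and input (right) library of each pool, as log2(CPM + 1), ordered by complex. Points are single libraries. Most genes lie below a value of 4, a few (Atp5b, Cox10, Sdha) above 6, and the points of the 2 old HA libraries are often far apart.

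In the HA libraries, 29 of the 40 genes had a lower and 11 a higher mean in old oocytes, and 54.1% of all genes had a lower one. No gene passed the adjusted threshold of 0.05 in limma (0 of 40, and 0% of the 8898 genes in the table, with the smallest adjusted p at 0.297). Without adjustment, at a p under 0.05, 5 genes were lower (Cox14, Ndufa5, Atp5j2, Uqcrh and Ndufa1), a share of 12.5% against 10.5% of all genes, and 0 were higher, against 4.28% of all genes. Both old libraries lay below both young ones for 12 genes (24.7% of all genes) and above them for 4 (17.2% of all genes). The counts at an unadjusted p under 0.05 were thus near the background of the table.

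The 5 lower genes were those that reached 1 CPM in both young and in no old HA library, and a gene with that pattern had to differ in order to be in the table. They made up 12.5% of the respiratory chain genes and 10.3% of all genes. Without them and without Cox7a2l, which reached 1 CPM in both old and in no young library, the other 34 genes had a median log2 difference of -0.59. The genes of the whole table that entered in the same way had 0.021. Over the 40 genes the median was -0.72, against -0.14 over all genes. Without the second old HA library it was 0.038, with 19 genes lower and 21 higher, and after quantile normalization it was -0.042, with 20 lower and 20 higher. The lower median was thus not seen without that library or under that scaling.

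In the input libraries, the genes showed a smaller spread between ages. Again 29 genes had a lower and 11 a higher mean in old oocytes (lower for 51.4% of all genes), with a median log2 difference of -0.42 against -0.03 over all genes. No respiratory chain gene passed the adjusted threshold in limma (0 of 40, against 0.0095% of all genes). At an unadjusted p under 0.05, Sdhd and Atp5a1 were lower (3.48% of all genes) and Sdhc and Cox10 were higher (2.71% of all genes). Sdhd was in the input table only through its young libraries, which fixed its direction. Both old libraries lay below both young ones for 11 genes (18.9% of all genes) and above them for 5 (16.4% of all genes). The number lower was 0 without the first young pool (2.01% of all genes) and 3 without the first or the second old pool (5.51% and 4.70% of all genes). The number higher was 4 without the second old pool (4.64% of all genes) and 1 without the first old or the second young pool (5.59% and 1.67% of all genes).

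For TE, 26 genes had a lower and 14 a higher mean in old oocytes (lower for 52.9% of all genes), and the median log2 difference was -0.38 against -0.10 over all genes. After quantile normalization the split was 21 lower and 19 higher. In limma, 0 genes passed the adjusted threshold (0% of all genes), and at an unadjusted p under 0.05 Sdhc was lower (3.51% of all genes) and Atp5a1 higher (2.98% of all genes). Both old pools lay below both young pools for 10 genes (20.4% of all genes) and above them for 6 (17.2% of all genes). Neither unadjusted call was made without the first or the second young pool, and 6 and 7 genes had an unadjusted p under 0.05 without the first and the second old pool, as did 25.2% and 19.1% of all genes. The smallest two-sided p of an exact permutation test with 2 pools per age is 0.333, and genes were therefore tested in models fitted across the table.

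**Figure D2:**
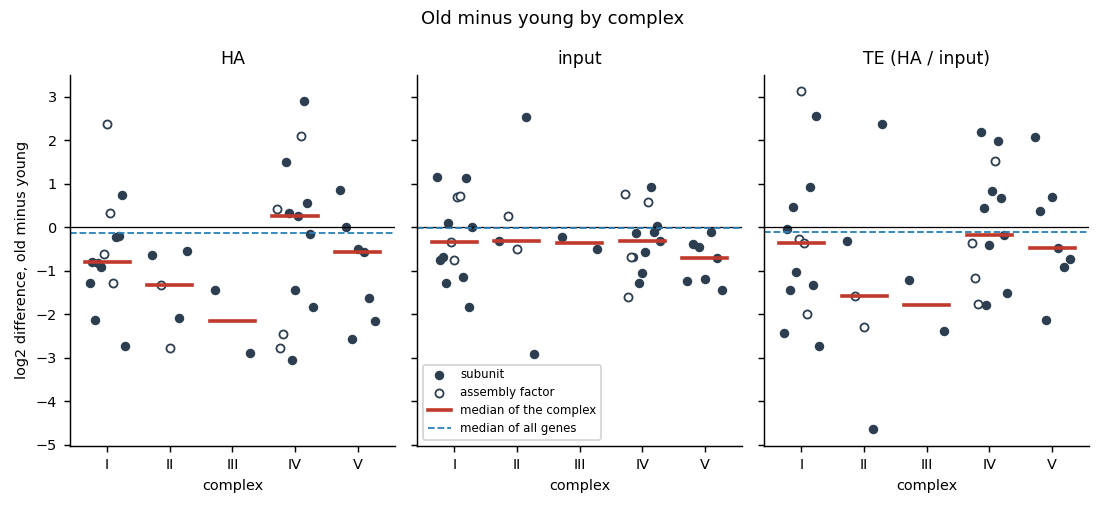
Log2 difference (old minus young) of each respiratory chain gene in HA, input and TE, by complex. Filled points are subunits and open points assembly factors, red bars mark the median of a complex and the dashed line the median of all genes. The HA medians of complexes I, II, III and V lie below the dashed line (-0.80, -1.32, -2.16 and -0.57) and that of complex IV above it (0.27).

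With edgeR's likelihood ratio test, the kind used in the study, run on recovered reads, the calls were 3 respiratory chain genes in HA at an adjusted p under 0.05, against 3.32% of all genes. These were Cox14 (adjusted p = 0.0462), Uqcrh (0.0462) and Ndufa5 (0.0479), each lower in old oocytes. All 3 were in the HA table only through their young libraries, so that the filter fixed a difference and its direction. In the input it called Sdhc (adjusted p = 0.0476), higher in old oocytes, against 0.475% of all genes. DESeq2 on the same reads called Cox14 (adjusted p = 0.0311) and Uqcrh (0.00908) in HA, against 5.71% of all genes. In the input DESeq2 called Sdhc (adjusted p = 0.00232) and Sdhd (0.0433), against 1.08% of all genes. Sdhd was in the input table only through its young libraries, so that the filter again fixed a difference and its direction. With edgeR's quasi-likelihood test, 0 genes passed the adjusted threshold. At an unadjusted p under 0.05 it had 4 respiratory chain genes lower in HA (8.96% of all genes) and 0 higher (4.54% of all genes), and in the input 2 lower (3.04% of all genes) and 2 higher (2.47% of all genes).

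A set of 4 transcripts (Cox14, Uqcrh, Ndufa5 and Atp5j2) were close to undetected on ribosomes in old oocytes. All 4 were in the HA table only through their young libraries, so that low old values were set by the filter. Cox14 (ENSMUSG00000023020.2, chromosome 15, 99725618 to 99728136, plus strand) encodes a small membrane protein that binds newly made COX1 during complex IV assembly. Its HA reads numbered 0 and 1 in old libraries, against 430 and 367 in young ones, that is 0 and 0.0370 CPM against 5.56 and 6.47 CPM. Neither old library came near the young ones. Summed over the libraries, the old level was 0.243% of the young level (95% exact interval 0.00615% to 1.36%, counting error only), and the log2 difference in limma was -2.78 (standard error 0.75, adjusted p = 0.297). Input levels of Cox14 were also lower in both old libraries, at 0.0368 and 1.67 CPM against 3.63 and 4.57 CPM (log2 difference -1.61, standard error 0.90, adjusted p = 0.792 in limma).

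Uqcrh (ENSMUSG00000063882.12, chromosome 4, 116066965 to 116075071, minus strand) encodes the hinge protein of complex III, which lies at the cytochrome c1 interface. It had 1 read in each old HA library and 218 and 799 reads in the young ones, or 0.381% of the young level (interval 0.0461% to 1.38%). Its input levels overlapped between ages, at 7.31 and 1.16 CPM in old and 5.95 and 4.21 CPM in young libraries. The log2 difference of Uqcrh was -2.88 in HA (standard error 0.95, adjusted p = 0.297) and -2.38 in TE (standard error 1.51, adjusted p = 0.755) in limma. A processed pseudogene, Gm12854, lies within the span of Uqcrh.

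Ndufa5 (ENSMUSG00000023089.12, chromosome 6, 24518666 to 24528013, minus strand) encodes an accessory subunit of the matrix arm of complex I. It had 0 and 1 HA reads in old against 159 and 309 in young libraries (0.414% of the young level, interval 0.0105% to 2.32%). Atp5j2 (ENSMUSG00000038690.15, chromosome 5, 145183698 to 145192062, minus strand) encodes subunit f of the membrane part of ATP synthase. It had 3 HA reads in each old library and 450 and 140 in the young ones (1.97%, interval 0.721% to 4.32%). In both genes the old and young HA groups did not overlap. The old input libraries held 144 and 2 reads of Ndufa5, whose input levels overlapped between ages. For Atp5j2 they held 102 and 10 reads, and both lay below the young input libraries (log2 difference -1.43).

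Values at the floor were common in the old HA libraries. The 4 genes at or under 3 reads in both old HA libraries were 10.0% of the 40, against 4.97% of the genes of the table, and 11 further genes were at or under 3 reads in exactly 1 old HA library (27.5%, against 15.1% of all genes). No respiratory chain gene was at or under 3 reads in both young libraries. By library, 8 and 11 respiratory chain genes were at or under 3 reads in old HA (10.1% and 14.9% of all genes), against 0 and 1 in young HA (0.438% and 2.17% of all genes). The 4 genes (Cox14, Uqcrh, Ndufa5 and Atp5j2) were in the HA table only through their young libraries. The filter thus fixed a difference and its direction. Without Young replicate 2, their log2 differences in HA ranged from -2.69 (Cox14) to -1.58 (Ndufa5).

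**Figure D3:**
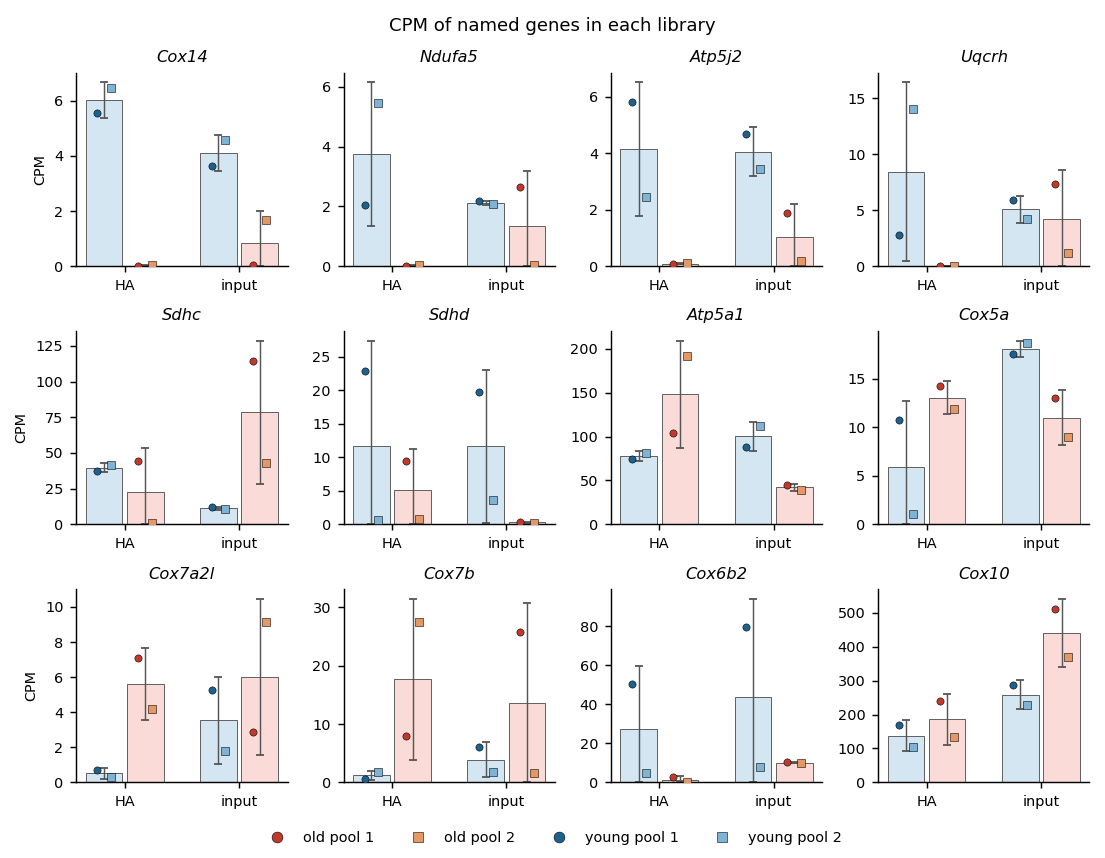
CPM of 12 named genes in HA and input. Bars are means of 2 pools with their SD (cut at 0), blue for young and red for old, and points are single libraries. Cox14, Ndufa5, Atp5j2 and Uqcrh sit at or near 0 in both old HA libraries but not in both old input libraries, Sdhc is higher in both old input libraries, and Atp5a1 is lower in input and higher in HA.

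Complex I was represented by 13 genes, 10 of which had a lower HA mean in old oocytes (54.1% of all genes). The median log2 difference was -0.80 in HA, -0.34 in input and -0.35 in TE. Set against other genes of like mean CPM, as described below, the median HA distance was 0.20, with 6 of 13 below.

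The core subunits of complex I carry its redox centres. Ndufs3, a core subunit of the ubiquinone module, was lower in mean in old input libraries. Its input reads numbered 71 and 1 in old pools against 144 and 328 in young pools, and its HA reads 1 and 165 against 98 and 9. The log2 difference of Ndufs3 was -1.83 in input (standard error 0.97, adjusted p = 0.790) and 2.56 in TE (standard error 1.60, adjusted p = 0.750). Without single pools it ranged from -2.65 to -1.01 in input and from 0.58 to 4.55 in TE. In HA the groups overlapped. Ndufs1, Ndufs7, Ndufv1 and Ndufv2, also core subunits, were in the input table alone, at mean levels of 1.94, 2.74, 2.88 and 4.32 CPM. None of these 4 had an unadjusted p under 0.05 and their groups overlapped.

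Among the accessory subunits of complex I, Ndufa10 had the highest mean input level per kb (12.4). Its HA levels were 26.8 and 6.36 CPM in old and 20.5 and 27.7 CPM in young libraries, and its input levels of 23.6 and 38.3 CPM in old lay below the 51.6 and 51.9 CPM in young libraries. Ndufs4, needed to complete the NADH-binding module, was low on ribosomes in the old pools, at 0.0950 and 7.02 CPM against 18.4 and 19.3 CPM. Its input groups overlapped, at 25.7 and 6.42 CPM against 12.6 and 13.6 CPM. The TE difference of Ndufs4 was -2.74 (log2, standard error 1.91, adjusted p = 0.775) and ranged from -5.10 to -0.38 without single pools. Ndufa1, a small membrane-arm subunit, had HA levels of 0.0475 and 0.333 CPM in old and 1.99 and 1.75 CPM in young libraries. In the input its level was lowest in young pool 1 (0.0435 CPM) and highest in old pool 1 (4.52 CPM).

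The complex I assembly factors differed among themselves. Ndufaf4 was the most abundant, with HA levels of 49.1 and 61.1 CPM in old and 32.6 and 56.9 CPM in young libraries. Its input levels were higher in both old libraries, at 132 and 81.4 CPM against 61.8 and 65.9 CPM (log2 difference 0.69, standard error 0.41, adjusted p = 0.810 in limma). Ndufaf3, its partner in building the ubiquinone module, had 2484 and 1 HA reads in old pools against 98 and 1 in young pools. Its log2 difference in HA was 2.38 (standard error 1.88, adjusted p = 0.692) and turned to -0.55 without the first old pool, so that 1 library set its direction. Ndufaf3 overlaps the gene Impdh2, and reads were counted without regard to strand. Ndufaf2 and Ndufaf7 were likewise split between the old HA libraries, at 26.6 and 0.111 CPM and at 4.28 and 0.111 CPM.

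All 5 complex II genes in both tables had a lower HA mean in old oocytes, with a median log2 difference of -1.32, and 1 of the 5, Sdhaf4, had both old libraries below both young ones (24.7% of all genes). Sdha, the flavoprotein that oxidizes succinate, had HA levels of 161 and 75.0 CPM in old and 244 and 121 CPM in young libraries (log2 difference -0.64, standard error 0.66, adjusted p = 0.783 in limma). Its input levels were 46.7 and 149 CPM against 104 and 106 CPM. In neither fraction did the ages separate.

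Sdhc and Sdhd encode the cytochrome b anchor subunits, which join in the membrane, yet their input levels differed in opposite directions. In HA both had a lower mean in old oocytes (log2 differences -2.08 and -0.54). Sdhc (ENSMUSG00000058076.12, chromosome 1, 171127165 to 171150603, minus strand) had 114 and 43.1 CPM in old and 11.9 and 10.5 CPM in young input libraries. Both old libraries were higher, by 2.55 on the log2 scale (standard error 0.68, adjusted p = 0.778 in limma). In HA, old pool 1 (44.2 CPM) was level with the young pools (37.7 and 41.8 CPM) and old pool 2 was far below them (1.03 CPM). The log2 TE of Sdhc was -1.35 and -4.44 in old and 1.58 and 1.90 in young pools, a difference of -4.63 (standard error 1.48, adjusted p = 0.739), the lowest of the 40 genes in TE. Without single pools it ranged from -6.18 to -3.09.

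Sdhd (ENSMUSG00000000171.4, chromosome 9, 50596357 to 50603812, minus strand) showed the reverse in the input. Its input levels were 0.368 and 0.241 CPM in old and 19.7 and 3.60 CPM in young libraries, with 20 and 12 reads against 1357 and 137 (log2 difference -2.91, standard error 1.04, adjusted p = 0.778 in limma). In HA the groups overlapped, at 9.41 and 0.813 CPM against 22.8 and 0.670 CPM, and the TE difference was 2.37 (standard error 1.54, adjusted p = 0.758). Without single pools, the input difference ranged from -3.99 to -1.82 and the TE difference from 1.18 to 3.56. Sdhd was the 1 respiratory chain gene in both tables that reached 1 CPM in both young and in no old input library. The filter thus fixed its input difference and the direction. Sdhb, the iron-sulfur subunit, was in the input table alone and had 0.0368 and 2.07 CPM in old and 2.37 and 0.578 CPM in young libraries.

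The complex II assembly factors were lower in mean on the ribosomes of old oocytes. Sdhaf4, which binds the flavinated form of SDHA, had 0.0475 and 5.25 CPM in old and 24.6 and 11.2 CPM in young HA libraries, with overlapping input levels of 7.28 and 5.56 against 13.1 and 6.75 CPM (HA log2 difference -2.79, standard error 1.58, adjusted p = 0.506). Sdhaf2, which is required to attach the flavin to SDHA, had 16.6 and 0.333 CPM in old and 8.78 and 13.9 CPM in young HA libraries. Old pool 1 was the highest and old pool 2 the lowest of the 4. Sdhaf2 overlaps the gene Cpsf7. Sdhaf3, in the input table alone, had 2.11 and 7.04 CPM in old and 11.7 and 22.2 CPM in young libraries (log2 difference -1.78, standard error 1.03, adjusted p = 0.800).

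Besides Uqcrh, complex III was represented by Uqcrc2, a core protein of its matrix side. Uqcrc2 had HA levels of 13.9 and 12.8 CPM in old and 59.8 and 23.6 CPM in young libraries, so that both old libraries were lower (log2 difference -1.44, standard error 1.15, adjusted p = 0.697 in limma). Its input levels of 46.5 and 38.6 CPM in old and 43.4 and 56.4 CPM in young libraries overlapped. The TE difference was -1.22 (standard error 1.20, adjusted p = 0.855), with log2 values of -1.68 and -1.53 in old and 0.45 and -1.22 in young pools. Uqcrfs1, the Rieske iron-sulfur protein, and Uqcrb were in the input table alone, at 23.9 and 2.07 against 0.987 and 4.52 CPM and at 1.47 and 0 against 0.871 and 2.00 CPM, and both overlapped between ages.

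Complex IV was the complex in which higher HA means in old oocytes were as common as lower ones, with 7 of 13 genes higher and a median log2 difference of 0.27. Cox7a2l, which promotes the joining of complexes III and IV into supercomplexes, had HA levels of 7.08 and 4.18 CPM in old and 0.724 and 0.300 CPM in young libraries (log2 difference 2.11, standard error 0.89, adjusted p = 0.340 in limma). Cox7b, a small structural subunit, had 7.94 and 27.5 CPM against 0.620 and 1.76 CPM (log2 difference 2.91, standard error 1.41, adjusted p = 0.412). In both genes the old HA libraries were higher without overlap, and their input levels overlapped. Cox7a2l was the 1 respiratory chain gene that reached 1 CPM in both old and in no young HA library. Cox5a, the subunit that surrounds the matrix side of COX1, had HA levels of 14.3 and 11.9 CPM in old and 10.7 and 1.11 CPM in young libraries, with input levels of 13.0 and 8.99 against 17.5 and 18.7 CPM.

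Of the complex IV isoform families, Cox6b was measured in both forms. Cox6b2, known as the testis form, had input levels of 10.4 and 9.97 CPM in old and 79.4 and 8.10 CPM in young libraries, and Cox6b1, the form of most tissues, had 4.13 and 2.37 against 6.69 and 0.999 CPM. Per kb of merged exon, Cox6b2 was above Cox6b1 in each of the 4 input libraries, at 9.37, 8.999, 71.7 and 7.31 against 5.84, 3.34, 9.45 and 1.41 CPM per kb. In HA, Cox6b2 had 2.61 and 0.185 CPM in old and 50.4 and 4.72 CPM in young libraries, the lowest HA difference of the 40 genes (log2 -3.05, standard error 1.65, adjusted p = 0.476). Young pool 1 was above the other pools in both fractions. Reads that fit equally to a processed copy elsewhere in the genome may have been left out of the counts of such genes.

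Cox6a1, Cox8a, Cox7a2 and Ndufa4 were the measured members of their families. Cox6a1 had close levels in all HA libraries, at 20.2 and 25.95 CPM in old and 15.5 and 21.2 CPM in young (log2 difference 0.32, standard error 1.15, adjusted p = 0.959 in limma). Cox8a had the highest mean input level per kb of the complex IV subunits, but Cox6a1 was above it in old pool 2 and young pool 2. Cox8a had 17.2 and 15.7 CPM in old and 33.7 and 7.46 CPM in young input libraries, and 2.00 and 12.6 against 7.52 and 4.92 CPM in HA. Ndufa4, first assigned to complex I and now known as a complex IV subunit, was at 30.6 and 1.33 CPM in old and 33.7 and 25.9 CPM in young HA libraries. Cox7a2 was low throughout, at 2.92 and 0 against 0.323 and 1.04 CPM in HA. None of the 4 separated the ages in HA, and no gene of the Cox4i family was in the tables analysed here.

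Cox10, the farnesyltransferase that starts heme a synthesis for complex IV, had the highest input level of the 40 genes. It had 512 and 369 CPM in old and 288 and 228 CPM in young input libraries, higher in both old libraries (log2 difference 0.76, standard error 0.29, adjusted p = 0.778 in limma). The HA levels of Cox10 were 240 and 133 CPM against 171 and 105 CPM and overlapped. Its log2 TE lay below the median of all genes in each of the 4 pools. That was so for 6 of the 40 genes (12.3% of all genes), and 1 gene, Atp5b, lay above it in all 4 pools (15.5% of all genes).

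The 7 complex V genes in both tables had a lower mean in the old input libraries (median log2 difference -0.71), and 3 of the 7 did so without overlap (18.9% of all genes). Among the complex V genes in the input table alone, Atp5j had a higher mean in old libraries (log2 difference 1.53), with 870 and 0 reads in old against 72 and 0 in young libraries. Atp5b, the catalytic beta subunit, was the most abundant of the 40 genes in HA, at 286 and 273 CPM in old and 324 and 242 CPM in young libraries (log2 difference 0.00, standard error 0.44, adjusted p = 1.00 in limma). Its input levels were 108 and 183 CPM against 190 and 175 CPM.

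Atp5a1 (ENSMUSG00000025428.15), the alpha subunit that alternates with beta in the same hexamer, behaved differently. Its HA levels were 104 and 191 CPM in old and 73.9 and 81.4 CPM in young libraries, while its input levels were 44.8 and 39.3 CPM in old and 88.4 and 112 CPM in young libraries. Neither fraction overlapped between ages, and the directions were opposite (log2 difference 0.86 in HA, standard error 0.62, adjusted p = 0.650, and -1.22 in input, standard error 0.42, adjusted p = 0.778). The log2 TE was 1.20 and 2.25 in old and -0.26 and -0.45 in young pools, a difference of 2.08 (standard error 0.84, adjusted p = 0.739). Leaving out single pools moved this from 1.56 to 2.61. Atp5a1 overlaps the gene Haus1 on the other strand.

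Atp5c1, the gamma subunit of the rotor, had 0.641 and 12.8 CPM in old and 21.1 and 35.7 CPM in young HA libraries, lower in both. Atp5g1 and Atp5g3 encode identical mature c-ring subunits from separate genes. Atp5g1 had HA levels of 3.21 and 0.0370 CPM in old and 3.66 and 1.06 CPM in young libraries and input levels of 12.7 and 4.03 against 12.0 and 5.10 CPM. Atp5g3, in the input table alone, had 0.643 and 0.100 CPM in old and 2.02 and 2.18 CPM in young libraries. Of this pair, the input of Atp5g3 separated the ages and that of Atp5g1 did not. Atp5g3 was in the input table only through its young libraries, so that the filter fixed this separation.

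**Figure D4:**
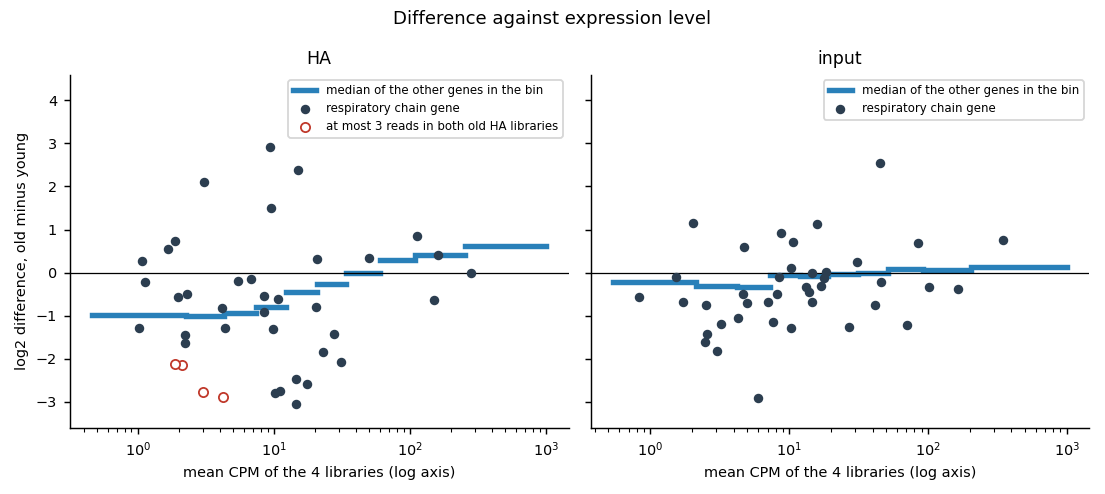
Log2 difference (old minus young) against mean CPM (log axis) for the 40 genes, HA left and input right. Blue bars are the medians of the other genes in 10 bins of equal gene number by mean CPM (the top bar is drawn to 1000 CPM), and open red points are the 4 genes with at most 3 reads in both old HA libraries. In HA the bars climb from -0.97 in the lowest bin to 0.61 in the highest.

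The respiratory chain genes were then set beside genes of like level, since the HA difference changed with expression over the whole table. Genes were split into 10 bins of equal number by mean CPM. In the lowest bin of the HA table, the median log2 difference of the other genes was -0.97, and in the highest it was 0.61. The respiratory chain genes were concentrated in the lower part, with 26 of the 40 in the lowest 4 bins. Set against the other genes of its own bin, the typical gene lay -0.20 from it in HA, with 22 of 40 genes below and 18 above, compared with the -0.58 that separated the medians of the 40 and of all genes. In the lowest 4 bins the medians were -0.92, -0.82, -0.20 and -0.76, against -0.97, -1.02, -0.94 and -0.81 for the other genes. In bins 5 and 6, with 5 and 4 genes, they were -2.46 and -1.63 against -0.45 and -0.26. Bin 9, with 3 genes, had 0.41 against 0.42, and bins 7 and 10 held 1 gene each. By complex, the median HA distances were 0.20 (I), -1.05 (II), -1.52 (III), 0.58 (IV) and -0.61 (V). In input the distance was -0.34 (27 of 40 below), and in TE, with bins of the input level, it was -0.28 (22 below).

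Other groups of housekeeping genes were examined in the same way. For 43 mitochondrial ribosomal protein genes in both tables, the median log2 difference was -1.06 in HA, -0.32 in input and -0.59 in TE, and 10 genes were lower and 0 higher in HA at an unadjusted p under 0.05, against 10.5% and 4.28% of all genes. For 30 proteasome subunit genes the medians were -0.65, 0.00 and -0.80, with 8 lower and 0 higher in HA on the same threshold. Distances from the bin medians in HA were -0.28 and -0.52. These groups and the respiratory chain genes share the same 4 pools, and a difference between groups was not tested.

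Genes of the pathway whose symbols fall outside the rule were given by a list of cytochrome c, ubiquinone synthesis and assembly genes, of which 19 of 53 were in both tables. In HA, 17 of the 19 had a lower mean in old oocytes (54.1% of all genes), with a median log2 difference of -1.06. The median distance from the bin medians was -0.12, with 11 of 19 below. At an unadjusted p under 0.05, 3 were lower (Coq5, 2010107E04Rik and Higd2a, against 10.5% of all genes) and 0 were higher (4.28% of all genes). These 3 were under 1 CPM in both old HA libraries, so that the filter fixed a difference and its direction. In input the split was 10 lower and 9 higher, with Coq4 and Tmem186 lower at an unadjusted p under 0.05 (3.48% of all genes). Both were in the input table only through their young libraries. In TE 16 were lower (52.9% of all genes), with Atpaf1 and Lrpprc past the unadjusted threshold (3.51% of all genes). None passed the adjusted threshold in any of these 3 comparisons. Atpaf1, a chaperone for the beta subunit of ATP synthase, had HA levels of 4.16 and 0.296 CPM in old and 29.8 and 31.2 CPM in young libraries. Lrpprc, which stabilizes mitochondrial mRNAs, had 7.13 and 1.26 against 42.1 and 36.1 CPM in HA, with overlapping input levels of 82.8 and 24.4 against 44.2 and 31.1 CPM. Cycs, the electron carrier cytochrome c, was low in all HA libraries, at 0 and 3.40 CPM in old and 0.943 and 4.48 CPM in young.

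The 24 genes found in the input table alone were weakly expressed, with mean levels of 1.08 to 10.8 CPM (median 2.81, against 10.4 for the 40 genes). Of these, 14 had a lower mean in old oocytes, and 7 had groups that did not overlap (35.3% of all genes). At an unadjusted p under 0.05, 1 was lower (Atp5k) and 1 higher (Ndufc1), against 3.48% and 2.71% of all genes. Atp5k reached 1 CPM in no old and Ndufc1 in no young input library. The filter thus fixed both differences and their directions. Atp5e and Cox15, found in the HA table alone, each had 1 old library at 0 or 1 read (old pool 2) and 1 well above the young ones (8.36 and 38.1 CPM in old pool 1, against 2.22 and 0 and against 3.37 and 1.94 CPM). Another 44 of the 110 symbols in the list of subunits and assembly factors were not in the tables analysed here.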

How the data were processed

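RNA-Seq was analysed for 8 libraries (HA and input of 2 young and 2 old pools of MII oocytes). The authors made cDNA with random hexamers and chimeric poly(T) primers. By their account this favours adenylated mRNAs, with little bias toward longer poly(A) tails. They trimmed the reads (Trimmomatic 0.36) and aligned them with HISAT2 to mm10. Reads were counted per gene over the whole gene span with HTSeq (GENCODE M11), and genes were filtered by CPM. The deposited signal values are CPM after TMM scaling, set separately for HA and input. The Methods give the filter as 10 CPM in 2 libraries, whereas all genes of the tables have at least 1 CPM in 2.

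The reads were recovered from the deposited signal, since 100% of the values were whole multiples of 1 read within 0.001. Columns not mapped to a sample numbered 0. Old and young were compared with limma (lmFit, eBayes with trend) on log2(CPM + 1), two-sided, with Benjamini-Hochberg adjustment over the whole table. TE was compared as log2(HA CPM + 1) minus log2(input CPM + 1) per pool, HA and input being paired by lysate, with the variance trend taken over the mean level in both fractions. Adjusted p-values without another tool named are from limma. The recovered counts were also tested with edgeR (likelihood ratio, quasi-likelihood) and DESeq2. Scripts were tested on simulated data. The labels say nothing of separate animals per pool, and p-values measure the spread between pools.

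For like level, genes were split into 10 bins of equal number by mean CPM. Gene spans, exons and 3'-UTRs (longest per gene) came from GENCODE M21 on GRCm38, which held 99.8% of the identifiers of the HA table and 99.9% of those of the input table. Named genes were, in each comparison, the 4 higher and 4 lower members with the smallest p; in each complex, the subunit and assembly factor with the highest input per kb; members at or under 3 reads in both libraries of an age; the Cox4i, Cox6a, Cox6b, Cox7a, Cox8, Atp5g and Ndufa4 families; complex II; and core complex I subunits. Cox5a, Atp5c1, Ndufaf2, Uqcrb, Uqcrfs1 and the genes named for a count of 5 or fewer were added after their values were seen. The values of 1 member are not reported here. Members and lists were chosen with earlier results of these data known. Tools were limma 3.58.1, DESeq2 1.42.0 and edgeR 4.0.16 under R 4.3.3, and pandas 2.3.3, numpy 2.4.6, scipy 1.17.1 and matplotlib 3.10.9 under Python 3.11.15.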

Additional observations from a re-analysis of the deposited data

Results flagged for a closer look

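Atp5a1 was singled out because its old and young libraries did not overlap in HA or in input and lay in opposite directions, higher in old in HA (log2 difference 0.86) and lower in old in input (-1.22). The TE difference was 2.08 on the log2 scale (standard error 0.84, unadjusted p = 0.0356, adjusted p = 0.739 in limma). Cox5a showed the same pattern, with log2 differences of 1.49 in HA and -0.69 in input and a TE difference of 2.19 (standard error 1.65, adjusted p = 0.802 in limma). Over the 8537 genes in both tables, 422 (4.94%) had non-overlapping groups in opposite directions, so that 2 of 40 respiratory chain genes (5.00%) is the share of the tables as a whole.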

How the results depend on the processing

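The median HA difference (-0.72) was -1.33 with a pseudocount of 0.1 CPM, -1.29 after rescaling each library to an equal sum and -0.042 after quantile normalization, and -1.14 to 0.038 without single pools. The scalings moved the HA median of all genes from -0.14 to -0.68 (same sum), 0.04 (median log2 ratio) and -0.05 (quantile), and 32, 27 and 20 of the 40 genes were then lower, against 29. The median TE difference (-0.38) was -1.23 and -0.27 with pseudocounts of 0.1 and 5 CPM, -0.78 (same sum), -0.23 (median log2 ratio), -0.066 (quantile), -1.30 in the edgeR quasi-likelihood interaction and -0.53 to -0.19 without single pools, and the input median was -0.62 to -0.24 without single pools. The TE distance from genes of like level was -0.10 with bins of the HA level, an alternative chosen after seeing the data, as was the variance trend over the mean log2 ratio, which left 2 unadjusted TE calls.

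The number of genes lower in HA (5) was 0 under either filter at 10 CPM, which left 18 and 17 of the 40 genes. Over all genes the share lower was then 2.87% and 1.16%. After quantile normalization the number was 1 (2.70% of all genes). The number higher (0) was 1 with a pseudocount of 5 CPM (4.21% of all genes) or the median log2 ratio (5.62%). It was 2 with quantile normalization (2.99% of all genes), without the variance trend (2.12%), in the likelihood ratio test (4.48%) and in DESeq2 (7.60%). Adjusted calls in HA numbered 3 (likelihood ratio, 295 of all 8898 genes) and 2 (DESeq2, 508). In input, the number lower (2) was 1 under either filter (1.92% and 1.81% of all genes). The number higher (2) was 1 with the same sum (1.70% of all genes), quantile normalization (2.84%) or no trend (2.36%). Adjusted calls in input numbered 1 (likelihood ratio, 50 of all 10530 genes) and 2 (DESeq2, 114). In TE, the number higher (1) was 0 with the same sum, quantile normalization or no trend, 2 with the replicate block and 0 to 3 without single pools, and the number lower (1) was 2 in the quasi-likelihood interaction and 0 to 4 without single pools. Ndufaf3 in HA turned to -0.55 without the first old pool (range without single pools, -0.55 to 5.30). When a pool was left out, the lone pool of that age was assumed to vary like the others. The cause of these changes was not tested.

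Old and young pools of the same number share only that number. Across genes, the correlation of their deviations was 0.0788 in HA, 0.0144 in input and 0.0108 in TE. With the replicate number as a block, the median differences were as without it (-0.72, -0.42 and -0.38), 0 respiratory chain genes passed the adjusted threshold in any of the 3 comparisons, and the smallest adjusted p was 0.244 in HA. Genes under about 3 reads are not resolved at this depth.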
